A study of Capra hircus with 6 samples.

Results

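Integrins, laminins, nidogens and their proteoglycan partners perlecan and agrin were examined in RNA sequencing data of the goat, Capra hircus. The cells were adipose mesenchymal stem cells, which grow out of the stroma of fat and can be turned into adipocytes in culture. The genes were chosen by symbol: integrin alpha subunits with a plain number or one of the letters V, L, M, X, D and E, numbered integrin beta subunits, laminin chains and nidogens listed under their own symbols, plus HSPG2 (perlecan) and AGRN (agrin), which gave 37 of the 16285 deposited genes. Integrin subunits numbered 23 (15 alpha and 8 beta), laminin chains 10, and nidogens and proteoglycans 4. ITGA2B, the platelet alpha subunit, lay outside that choice, at 0.74 to 0.93 FPKM in YAP libraries and 0.70 to 0.85 FPKM in control libraries, under the filter used below. The tested libraries were 3 labelled as overexpressing YAP, and the comparison libraries were 3 controls labelled WT. Both groups carried the label of adipogenic differentiation, and no label says how YAP was delivered, whether the control cells received an empty vector, or whether the replicates came from separate cultures or animals. Columns headed pcDNA, the name of a plasmid vector, stand in the deposited YAP table but match no sample and were not used, so what the control cells received is not known here. P-values therefore weigh the group difference against the scatter of these samples only, and that scatter may be technical. The series' design text names a line overexpressing TAZ, whereas all 3 titles and genotype labels name YAP.

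The values were FPKM, fragments scaled to the length of the gene model and to the counted fragments of the library. The libraries held 32593380 to 37131015 counted fragments. The overexpressed gene was checked first. YAP1 had 28.4, 25.6 and 28.2 FPKM in the libraries labelled YAP, against 25.8, 27.0 and 28.9 FPKM in control libraries. The groups overlapped, with a log2 change of 0.01 (SE 0.08, limma adjusted p = 0.95) and an exact two-sided permutation p of 1, where 3 against 3 libraries allow no p below 0.1. The gene of TAZ, WWTR1, had 21.9, 19.2 and 23.1 FPKM in YAP libraries, against 30.2, 29.9 and 35.9 FPKM in control libraries, and was lower (log2 change -0.56, SE 0.10, limma adjusted p = 0.0013). The transcript level of YAP1 thus did not separate the groups, and directions below are those of the libraries labelled YAP. The stromal identity on the labels was matched by its markers, as all 10 stromal list members exceeded 1 FPKM. Among them COL1A1 had 5890 ± 166 FPKM in YAP libraries and 3674 ± 73.9 in control libraries (SD, n = 3 each). ENG had 80.8 ± 4.98 FPKM in YAP libraries and 150 ± 14.8 in control libraries (limma adjusted p = 2.2e-05). By the limma threshold used below, PDGFRB, THY1, COL1A1, COL1A2, LUM and DCN were higher in YAP libraries. ENG and NT5E were lower, and PDGFRA and VIM did not pass. Of the markers with a row, all 8 leukocyte and all 7 endothelial ones stayed below 1 FPKM in every library. So did 5 of 6 adipocyte markers with a row, among them the regulator gene PPARG with 2 to 4 reads in each library. The exception was CIDEA, a lipid droplet protein gene, with 3.02 to 3.90 FPKM in YAP libraries and 2.18 to 3.01 FPKM in control libraries (limma adjusted p = 0.14). Apart from CIDEA, the adipocyte markers thus did not match the label of adipogenic differentiation in either group.

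Integrins are receptors made of an alpha and a beta subunit that join the cytoskeleton to the matrix outside the cell, and the alpha subunit largely sets the ligand. The collagen receptors use alpha1, alpha2, alpha10 or alpha11, the laminin receptors alpha3, alpha6 or alpha7, and the receptors of the Arg-Gly-Asp (RGD) motif of fibronectin and vitronectin alpha5, alpha8 or alphaV. Laminins are trimers of an alpha, a beta and a gamma chain that polymerise into the basement membrane, the sheet around adipocytes, muscle and vessels. Nidogens and perlecan link that sheet to collagen IV, and agrin ties laminin to dystroglycan.

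Of the 37 genes, 24 passed the filter of at least 1 FPKM in at least 3 libraries and were tested. Past the threshold of limma adjusted p 0.05, 4 were higher and 6 lower in YAP libraries, and 14 did not pass. Among all 10761 genes tested, 35.9% were past the same threshold, 12.9% higher and 23.0% lower, so that the 10 of 24 called here were near the background. After median-of-ratios scaling of the libraries 1702 genes were higher and 1507 lower, where the deposited scaling gave 1392 and 2476, and the genes described here split into 4 higher and 5 lower. The median log2 change of the 24 was -0.09, against -0.10 over all tested genes. Sizes ran from -1.92 for ITGA6, the 6th most lowered of all tested genes, to 1.41 for AGRN, the 132nd most raised. The higher genes were ITGA4, ITGB8, LAMA4 and AGRN. The lower ones were ITGA5, ITGA6, ITGB1, LAMA2, LAMC1 and NID2. Of these 10, ITGA4 met the filter through its YAP libraries and LAMA2 through its control libraries, in each case the higher group. Their place in the count thus depended on the group where each was higher. Levels of 11 of the 24 did not overlap between groups, against 48.3% of all tested genes. All log2 changes refer to log2(FPKM + 1), on which the change of a low gene looks smaller than its FPKM ratio.

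**Figure D1:**
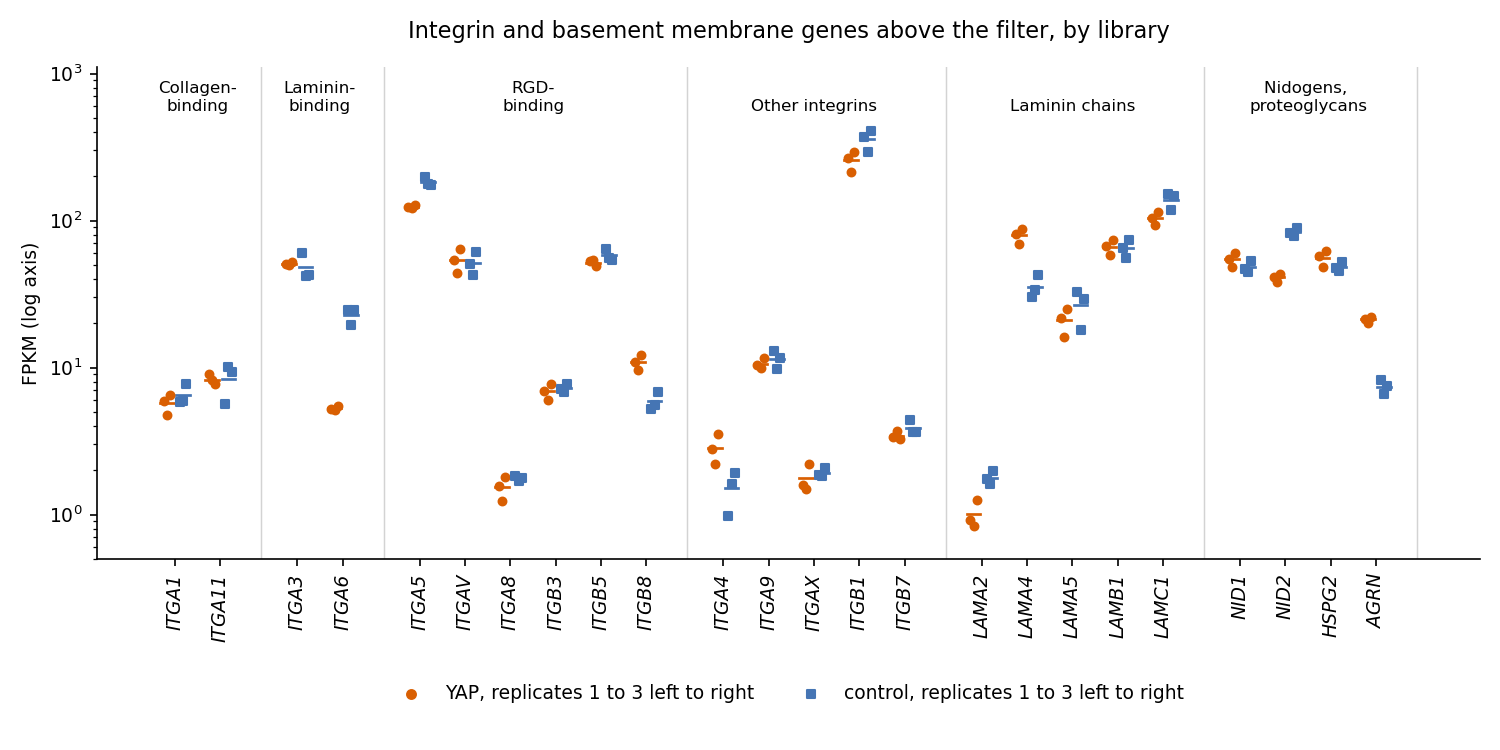
FPKM on a log axis for the 24 tested genes in each library, in order of ligand class and chain. Orange circles are the 3 libraries labelled YAP, blue squares the 3 controls, and short lines the group means. ITGA6, NID2, LAMA4 and AGRN show the widest gaps, while ITGA3, ITGAV, LAMB1 and NID1 overlap.

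**Figure D2:**
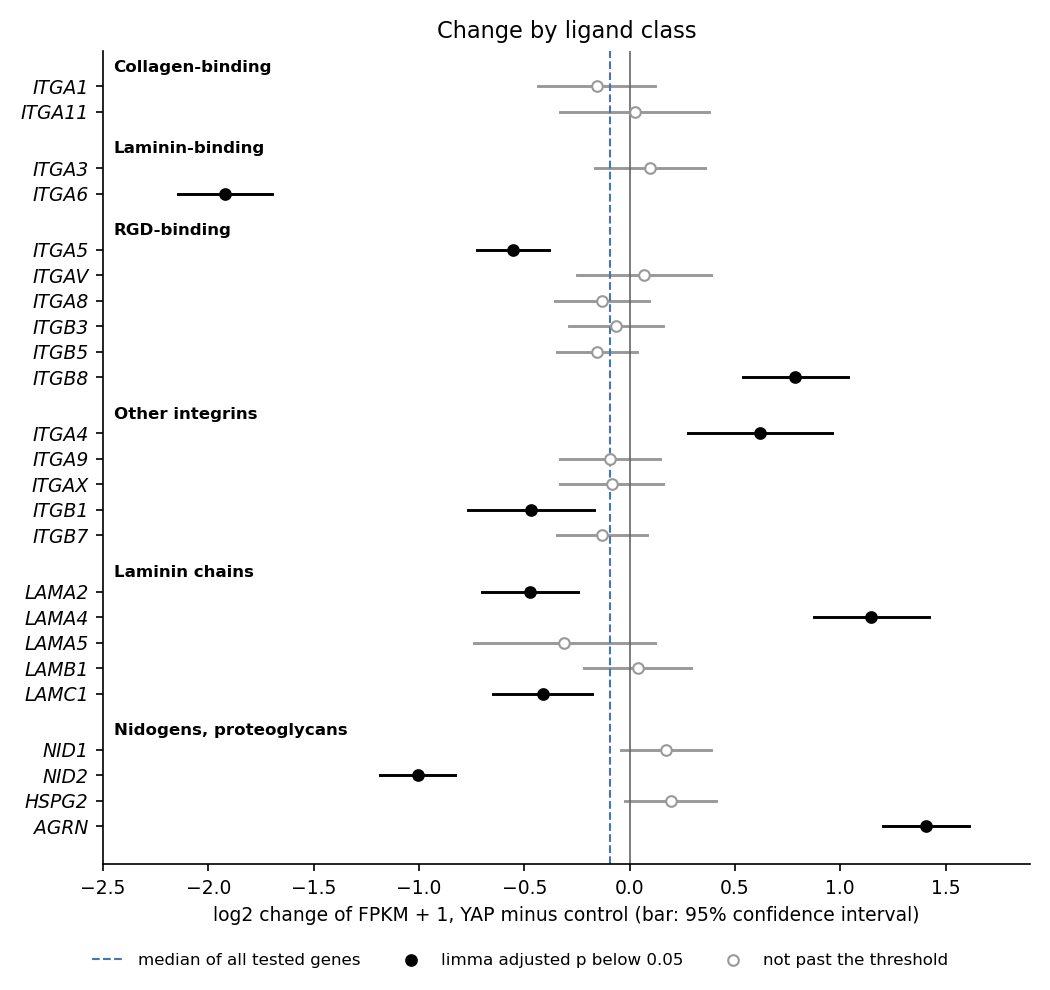
Log2 change of FPKM + 1, YAP minus control, with its 95% confidence interval from limma. Filled points passed the adjusted threshold, open points did not, and the dashed line marks the median of all tested genes at -0.10. The RGD-binding, laminin and nidogen with proteoglycan groups each hold filled points on both sides of 0.

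Collagen-binding alpha subunits were low in both groups, and neither of the 2 that were tested passed the threshold. ITGA11, a receptor of fibrillar collagen in fibroblasts, had 8.98, 8.18 and 7.70 FPKM in YAP libraries, against 5.65, 10.03 and 9.31 FPKM in control libraries. The lowest and the highest value were both controls. Its log2 change was 0.02 (95% confidence interval -0.33 to 0.38), and without control replicate 1 it was -0.20. ITGA1, which also binds collagen IV, had 5.93, 4.77 and 6.53 FPKM in YAP libraries, against 5.85, 5.93 and 7.78 FPKM in control libraries. The groups overlapped (log2 change -0.16, 95% confidence interval -0.43 to 0.12, limma adjusted p = 0.36). ITGA10, the chondrocyte collagen receptor, was under the filter with 85, 80 and 72 reads in YAP libraries and 196, 137 and 138 reads in control libraries. Without a filter on low values ITGA10 was lower (log2 change -0.36, limma adjusted p = 0.011). ITGA2, found mainly on platelets and epithelia, had 3 to 23 reads per library.

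Of 10 fibrillar and associated collagen genes, which these receptors bind, 6 were higher and 1 lower, with a median log2 change of 0.47, against 12.9% higher, 23.0% lower and a median of -0.10 over all tested genes. COL3A1 had 5903 ± 275 FPKM in YAP libraries and 3385 ± 201 in control libraries (SD, n = 3 each; limma adjusted p = 8.1e-05). COL12A1, which coats collagen fibrils, had 55.4, 42.4 and 67.6 FPKM in YAP libraries, against 17.3, 19.6 and 25.9 FPKM in control libraries (log2 change 1.35, SE 0.17, limma adjusted p = 1.1e-04). Neither gene's groups overlapped, whereas those of ITGA1 and ITGA11 did.

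The laminin-binding subunits ITGA3 and ITGA6 differed in level and in change. ITGA6, the subunit that pairs with beta1 or beta4 in epithelial and stem cells, had 5.22, 5.15 and 5.47 FPKM in YAP libraries, against 24.8, 19.4 and 24.5 FPKM in control libraries. The YAP values lay within a narrow band far below every control. The mean was 0.231 times the control mean (log2 change -1.92, SE 0.10, limma adjusted p = 1.2e-07), on 947 to 4883 reads per library. ITGA3, the more abundant laminin receptor subunit here, had 50.7, 49.5 and 52.3 FPKM in YAP libraries, against 59.7, 42.1 and 42.4 FPKM in control libraries. Control replicate 1 lay above and the other controls below all YAP values. ITGA3 did not pass (log2 change 0.10, 95% confidence interval -0.17 to 0.36, limma adjusted p = 0.55), but without control replicate 1 its change was 0.26 with limma adjusted p = 0.025, where the alternatives ran from 0.025 to 0.95. The ITGA6 level was 0.103, 0.104 and 0.105 of the ITGA3 level in YAP libraries, against 0.415, 0.461 and 0.577 in control libraries, a ratio that does not depend on the scaling between libraries.

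The other laminin-binding subunits were under the filter. ITGB4, the hemidesmosome subunit and partner of alpha6, had 0.61 to 0.93 FPKM over the 6 libraries. ITGA7, the laminin receptor of muscle, had 37, 33 and 32 reads in YAP libraries, against 15, 16 and 14 reads in control libraries, which did not overlap. Without a filter ITGA7 was higher (log2 change 0.14, limma adjusted p = 0.0025), still at 0.210 ± 0.018 FPKM in YAP libraries and 0.095 ± 0.008 in control libraries (SD, n = 3 each).

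Among RGD-binding subunits 6 of 7 were tested, of which 1 was higher, 1 lower and 4 did not pass. ITGA5, the fibronectin receptor subunit and the most abundant alpha subunit of these cells, had 123, 122 and 127 FPKM in YAP libraries, against 199, 177 and 173 FPKM in control libraries. All YAP values lay below all controls (log2 change -0.55, SE 0.08, limma adjusted p = 2.8e-04). ITGAV, which pairs with several beta subunits to bind vitronectin and latent TGF-beta, had 54.0, 43.9 and 64.3 FPKM in YAP libraries, against 50.6, 42.8 and 60.9 FPKM in control libraries. Its groups overlapped nearly in full (log2 change 0.07, 95% confidence interval -0.25 to 0.39). ITGA8, a nephronectin receptor subunit, had 1.24 to 1.81 FPKM in YAP libraries and 1.70 to 1.84 FPKM in control libraries and did not pass.

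Among the RGD-binding beta subunits, ITGB8 was the member past the threshold. ITGB8, which with alphaV activates latent TGF-beta, had 10.8, 9.57 and 12.2 FPKM in YAP libraries, against 5.20, 5.60 and 6.86 FPKM in control libraries. Every YAP value lay above every control (log2 change 0.79, SE 0.11, limma adjusted p = 3.4e-04). ITGB5, a vitronectin receptor subunit, was more abundant, with 52.9, 53.7 and 48.7 FPKM in YAP libraries, against 64.2, 55.6 and 54.0 FPKM in control libraries. The ITGB5 groups did not overlap, yet the change did not pass (log2 change -0.16, SE 0.09, limma adjusted p = 0.18). ITGB3 had 5.97 to 7.72 FPKM in YAP libraries and 6.80 to 7.73 FPKM in control libraries and did not pass. ITGB6, an epithelial subunit, had at most 3 reads in any library.

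Genes listed as ligands of RGD-binding integrins moved both ways. Of 15 tested, 4 were higher and 5 lower, against 12.9% higher and 23.0% lower over all tested genes. Their median log2 change was -0.05. CYR61, a matricellular protein, had 597, 630 and 557 FPKM in YAP libraries, against 304, 367 and 288 FPKM in control libraries (limma adjusted p = 4.9e-05). TGFB1, whose latent form carries RGD, had 21.0, 22.4 and 22.1 FPKM in YAP libraries, against 43.1, 38.5 and 35.9 FPKM in control libraries (limma adjusted p = 3.3e-05). SPP1, osteopontin, had 287 ± 12.5 FPKM in YAP libraries and 394 ± 8.5 in control libraries (SD, n = 3 each; limma adjusted p = 7.5e-04). None of these 3 overlapped between groups.

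ITGB1, the common partner of the collagen, laminin and fibronectin receptor subunits, was the most abundant integrin gene. ITGB1 had 266, 213 and 294 FPKM in YAP libraries, against 370, 295 and 407 FPKM in control libraries. The highest YAP value fell just short of the lowest control (294.5 against 294.7 FPKM). Its log2 change was -0.47 (SE 0.14, limma adjusted p = 0.020). It was no longer past the threshold with median-of-ratios scaling (limma adjusted p = 0.053), with quantile normalization (limma adjusted p = 0.13), without a filter (limma adjusted p = 0.081) and without control replicate 1 (limma adjusted p = 0.086) or control replicate 3 (limma adjusted p = 0.068). Over all alternatives its adjusted p ran from 2.6e-05 to 0.13.

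ITGA4, ITGA9 and ITGB7 were listed in none of the collagen-, laminin- or RGD-binding classes. ITGA4, which binds VCAM1 and fibronectin, had 2.78, 2.21 and 3.51 FPKM in YAP libraries, against 0.97, 1.61 and 1.93 FPKM in control libraries. The groups did not overlap (log2 change 0.62, SE 0.16, limma adjusted p = 0.010). Without a filter the limma adjusted p was 0.054, the highest of its alternatives, which began at 0.0015. Control replicate 1 was below 1 FPKM, so ITGA4 passed the filter through its YAP libraries. ITGA9, a tenascin receptor subunit, had 9.98 to 11.6 FPKM in YAP libraries and 9.74 to 13.0 FPKM in control libraries and did not pass. ITGB7, the partner of alpha4 and alphaE on lymphocytes, had 3.26 to 3.71 FPKM in YAP libraries and 3.63 to 4.37 FPKM in control libraries and did not pass.

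Of the leukocyte alpha subunits, ITGAX alone was above the filter, with 1.49 to 2.22 FPKM in YAP libraries and 1.83 to 2.07 FPKM in control libraries (limma adjusted p = 0.57). ITGB2, the leukocyte beta subunit and partner of alphaX, was under the filter, with 44, 54 and 54 reads in YAP libraries, against 12, 0 and 1 reads in control libraries. The YAP counts lay above all controls, and without a filter ITGB2 was higher (log2 change 0.52, limma adjusted p = 0.0017), at 0.490 ± 0.080 FPKM in YAP libraries and 0.042 ± 0.065 in control libraries (SD, n = 3 each). The 8 leukocyte markers summed to 0.57 to 0.72 FPKM in YAP libraries, against 0.85 to 1.31 FPKM in control libraries. CD3E had 0.16 to 0.22 FPKM in YAP libraries, against 0.54 to 0.68 FPKM in control libraries. CD79A had 0.048 ± 0.065 FPKM in YAP libraries and 0.215 ± 0.093 in control libraries (SD, n = 3 each). TYROBP, LCP1 and CSF1R had higher means in YAP libraries, with overlap. AIF1 was listed at 0 throughout and PTPRC had at most 1 read. ITGAM had at most 2 reads and ITGAE 18 to 35 reads per library. ITGAL had no row under its symbol and was not analysed here.

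Shares within a library compare the receptor classes free of the scaling between libraries. RGD-binding subunits took 67.6% ± 0.63 of summed alpha subunit FPKM in YAP libraries and 69.9% ± 0.92 in control libraries (SD, n = 3 each), and the groups did not overlap. Laminin-binding subunits took 21.2% ± 0.80 in YAP libraries and 20.9% ± 1.99 in control libraries, and collagen-binding subunits 5.43% ± 0.32 in YAP libraries and 4.69% ± 1.09 in control libraries, both with overlap. The nearly equal laminin-binding share hid a change of members. ITGA6 took 1.99% ± 0.07 of summed alpha FPKM in YAP libraries and 6.76% ± 0.54 in control libraries, and ITGA3 19.1% ± 0.72 in YAP libraries and 14.1% ± 2.00 in control libraries. The RGD-binding share was likewise made of a lower ITGA5 part, 46.8% ± 2.01 in YAP libraries and 54.2% ± 2.59 in control libraries. ITGAV took 20.2% ± 2.55 in YAP libraries and 15.2% ± 2.50 in control libraries, with overlap. Summed alpha FPKM was 266 ± 17.1 in YAP libraries and 338 ± 25.4 in control libraries. A lower sum raises the share of each subunit that did not fall with it, as for ITGA3. Counted in recovered reads, which weigh longer genes more, the laminin-binding difference was -1.15 percentage points where FPKM gave 0.28, and the RGD-binding difference was -0.68 where FPKM gave -2.34.

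**Figure D3:**
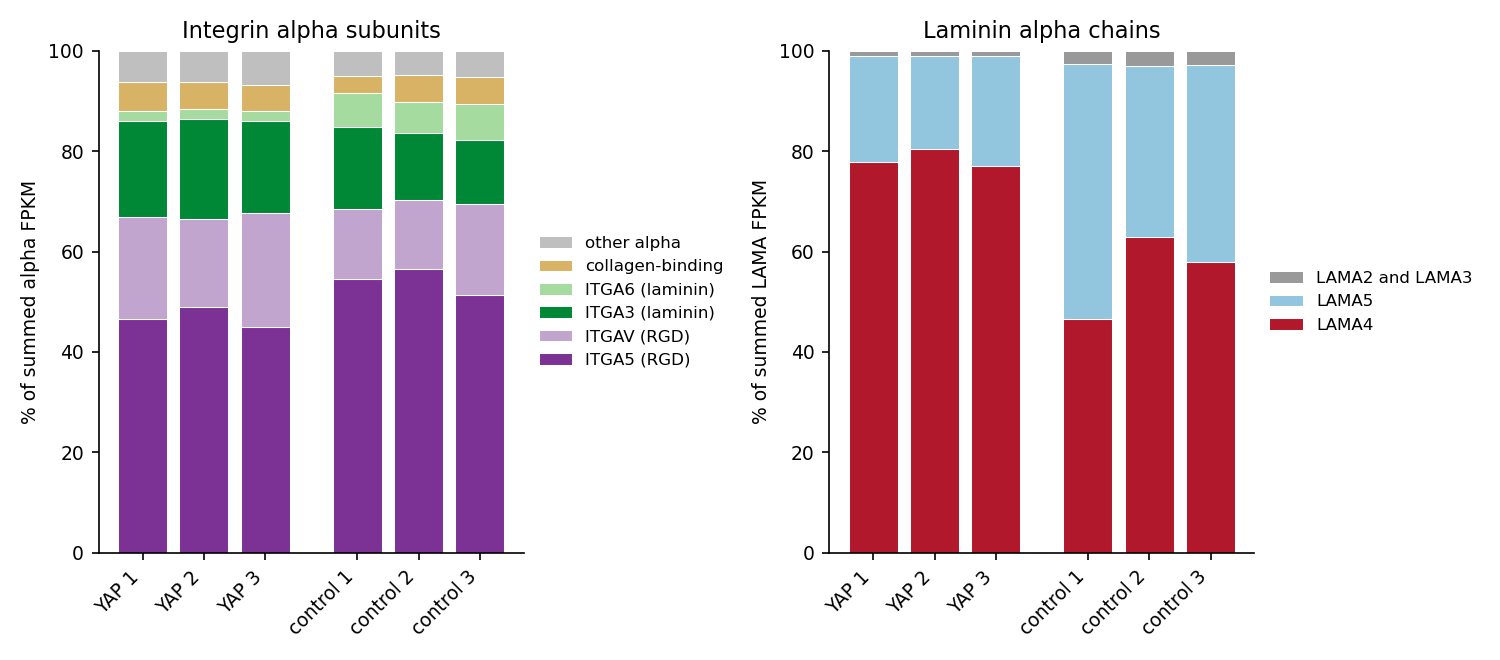
Composition of integrin alpha subunits (left) and laminin alpha chains (right), as percent of their summed FPKM in each library, with the 3 YAP libraries left of the 3 controls. The ITGA6 band is narrow in all YAP libraries (1.93% to 2.07%), and LAMA4 takes 77.0% to 80.3% in YAP libraries against 46.6% to 63.0% in controls.

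Laminin chains differed more by chain than by family. Of the 10 with a row, 5 were tested, with 1 higher, 2 lower and 2 not past the threshold. LAMA4, the alpha chain of vessel, fat and muscle laminins, had 80.5, 69.8 and 87.7 FPKM in YAP libraries, against 30.1, 33.6 and 42.8 FPKM in control libraries. The lowest YAP value lay well above the highest control. Its mean was 2.23 times the control mean (log2 change 1.15, SE 0.12, limma adjusted p = 4.0e-05), and it was the 208th most raised gene. LAMA2, the alpha chain of muscle and nerve laminin, had 0.92, 0.84 and 1.25 FPKM in YAP libraries, against 1.74, 1.61 and 1.99 FPKM in control libraries. The groups did not overlap (log2 change -0.47, SE 0.10, limma adjusted p = 0.0049). LAMA2 reached 1 FPKM in each control library but, of the YAP libraries, in replicate 3 alone. It therefore passed the filter through its control libraries.

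LAMA5, the broadly used alpha chain of mature basement membranes, had 21.9, 16.2 and 24.9 FPKM in YAP libraries, against 32.8, 18.1 and 29.0 FPKM in control libraries. The groups overlapped (log2 change -0.31, SE 0.20, limma adjusted p = 0.24). Without control replicate 2 the change was -0.56 with limma adjusted p = 0.015, where the alternatives ran from 0.010 to 0.64. A further row, described in the deposited table as laminin subunit alpha-5-like and listed under LOC108637403, had 38.8, 43.5 and 38.1 FPKM in YAP libraries, against 70.1, 61.1 and 54.1 FPKM in control libraries (limma adjusted p = 8.2e-04). The sources used here do not give how reads were divided between this row and LAMA5, so the LAMA5 level is uncertain. LAMA4 took 78.4% ± 1.74 of summed alpha chain FPKM in YAP libraries and 55.8% ± 8.40 in control libraries (SD, n = 3 each). With the alpha-5-like row counted, the LAMA4 share was 55.9% ± 2.15 in YAP libraries and 28.4% ± 5.61 in control libraries. Neither pair of groups overlapped.

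The partner chains LAMC1 and LAMB1 were not higher with LAMA4, whereas a laminin beta-2 row was. LAMC1, the gamma chain of most laminins and the most abundant laminin gene here, had 104, 93.5 and 115 FPKM in YAP libraries, against 152, 119 and 146 FPKM in control libraries. All YAP values lay below all controls (log2 change -0.41, SE 0.11, limma adjusted p = 0.012), although the call was lost after quantile normalization (limma adjusted p = 0.056) and without control replicate 1 (limma adjusted p = 0.058). Over all alternatives its adjusted p ran from 3.1e-04 to 0.058. LAMB1, the beta chain it pairs with, had 67.4, 57.8 and 73.7 FPKM in YAP libraries, against 64.8, 55.2 and 74.1 FPKM in control libraries, with a log2 change of 0.04 (95% confidence interval -0.22 to 0.29). The other beta chain, laminin beta-2, had no row under its own symbol. Its most abundant row by description, LOC102183372, had 76.6, 76.0 and 74.3 FPKM in YAP libraries, against 53.6, 49.5 and 47.6 FPKM in control libraries (log2 change 0.58, SE 0.08, limma adjusted p = 1.5e-04).

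LAMA4 stood at 0.776, 0.746 and 0.766 of the LAMC1 level in YAP libraries, against 0.198, 0.283 and 0.293 in control libraries. LAMA3 and LAMB3, chains of epithelial laminin, were nearly absent, with 10 to 28 reads for LAMA3 and 1 to 3 reads for LAMB3 per library. LAMC3 had 9 to 32 reads and LAMB4 0 to 5 reads per library. LAMA1, the early embryonic alpha chain, had no row under its symbol and was not analysed here.

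Markers of smooth muscle and mural cells went both ways. The 8 markers of that list, most of whose sum was ACTA2, summed to 812 to 915 FPKM in YAP libraries, against 400 to 622 FPKM in control libraries. The actin gene ACTA2 and the calponin gene CNN1 were higher (limma adjusted p = 0.0022 and 9.4e-07). The pericyte proteoglycan gene CSPG4 was lower, at 19.4 ± 1.27 FPKM in YAP libraries and 25.7 ± 4.56 in control libraries (SD, n = 3 each; limma adjusted p = 0.024), and NOTCH3 did not pass (limma adjusted p = 0.31). The other 4 of the 8, MYH11, RGS5, DES and KCNJ8, stayed below 1 FPKM in every library. In bulk RNA fewer cells of a type and less RNA per cell cannot be told apart, and the part of these genes in the LAMA4 result was not tested. Of 7 endothelial markers 0 reached 1 FPKM in any library, with sums of 0.215 to 0.293 FPKM in YAP libraries and 0.336 to 0.533 FPKM in control libraries. The S100B gene made up most of the Schwann cell list, which summed to 38.8 to 41.4 FPKM in YAP libraries and 28.7 to 34.7 FPKM in control libraries, while SOX10 had at most 1 read.

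The 2 nidogens, which can replace each other in much of mouse development, parted. NID2 had 41.1, 38.4 and 43.5 FPKM in YAP libraries, against 82.9, 78.7 and 88.7 FPKM in control libraries. The mean was 0.492 times the control mean, with no overlap (log2 change -1.01, SE 0.08, limma adjusted p = 3.5e-06), the 81st most lowered of all tested genes. NID1 had 54.4, 48.5 and 60.1 FPKM in YAP libraries, against 46.6, 44.3 and 53.2 FPKM in control libraries. The NID1 groups overlapped (log2 change 0.17, 95% confidence interval -0.04 to 0.39, limma adjusted p = 0.19). NID2 thus took 43.1% ± 1.11 of nidogen FPKM in YAP libraries and 63.5% ± 0.84 in control libraries (SD, n = 3 each), so the more abundant nidogen was NID1 in each YAP library and NID2 in each control.

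The 2 heparan sulfate proteoglycans also differed. AGRN had 21.5, 20.2 and 22.2 FPKM in YAP libraries, against 8.22, 6.57 and 7.50 FPKM in control libraries. Every YAP value lay far above every control. The mean was 2.87 times the control mean and the log2 change 1.41 (SE 0.09, limma adjusted p = 7.1e-07). HSPG2, perlecan, had 57.1, 48.2 and 62.1 FPKM in YAP libraries, against 47.8, 45.7 and 51.8 FPKM in control libraries. The groups overlapped in YAP replicate 2 (log2 change 0.20, 95% confidence interval -0.02 to 0.41, limma adjusted p = 0.14), and without that library the change was 0.30 with limma adjusted p = 0.027, where the alternatives ran from 0.019 to 0.43.

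**Figure D4:**
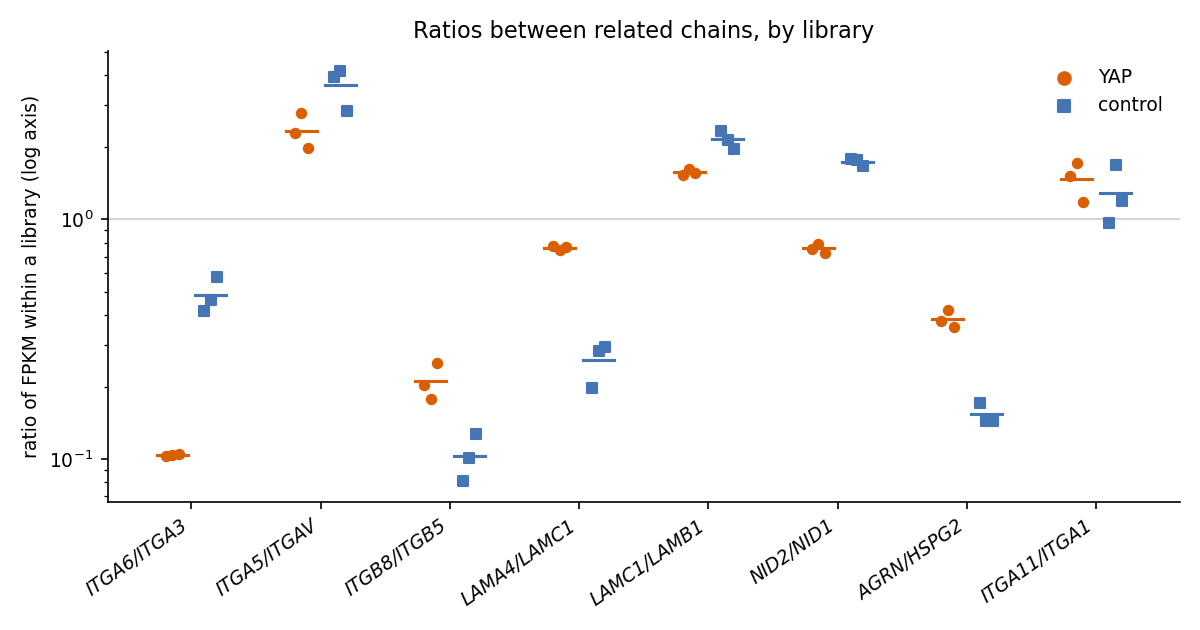
Ratio of FPKM between related chains within each library, on a log axis, for 8 pairs picked after their values were seen. Orange circles are YAP libraries, blue squares controls, and short lines the means. NID2/NID1 lies at 0.72 to 0.79 in YAP libraries and 1.67 to 1.78 in controls, and of the pairs drawn ITGA11/ITGA1 alone overlaps.

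Other basement membrane genes moved both ways. Of 14 tested, 6 were higher and 2 lower, against 12.9% higher and 23.0% lower over all tested genes. Their median log2 change was 0.25, against -0.10 over all tested genes. The collagen IV chains that form the network next to laminin, COL4A1 and COL4A2, were both higher. COL4A1 had 98.0, 91.2 and 95.4 FPKM in YAP libraries, against 66.2, 65.8 and 63.5 FPKM in control libraries (limma adjusted p = 2.0e-04), and COL4A2 had 87.9 ± 1.56 FPKM in YAP libraries and 56.6 ± 3.86 in control libraries (SD, n = 3 each; limma adjusted p = 1.0e-04). NTN4, a netrin that binds laminin gamma chains, had 10.7, 10.3 and 10.8 FPKM in YAP libraries, against 21.4, 18.6 and 20.6 FPKM in control libraries (limma adjusted p = 1.5e-05). SMOC1, a secreted calcium-binding protein of basement membranes, had 0.193 ± 0.016 FPKM in YAP libraries and 1.98 ± 0.31 in control libraries (SD, n = 3 each; limma adjusted p = 1.9e-06), and passed the filter through its control libraries alone.

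Of 19 tested receptors of laminin other than integrins, 2 were higher and 6 lower, with a median log2 change of -0.18, near the 35.9% called over all tested genes. Without YAP replicate 1, and likewise without control replicate 1, 1 was higher and 3 were lower. Without YAP replicate 3, and likewise without control replicate 2, 1 was higher. SDC4, a syndecan of focal adhesions, had 131, 137 and 132 FPKM in YAP libraries, against 99.3, 86.4 and 80.4 FPKM in control libraries (limma adjusted p = 4.0e-04). Its relative SDC2 had 5.33, 5.81 and 5.37 FPKM in YAP libraries, against 8.36, 11.0 and 9.58 FPKM in control libraries (limma adjusted p = 3.6e-04). SGCB, a sarcoglycan of the dystroglycan complex, was lower (limma adjusted p = 0.0033). Dystroglycan itself, DAG1, the receptor of agrin, had 47.4 ± 3.04 FPKM in YAP libraries and 44.1 ± 2.76 in control libraries and did not pass (limma adjusted p = 0.36).

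Among genes listed as regulators of integrins or as adaptors to actin, 4 were higher and 6 lower of 28 tested. Their median log2 change was -0.06, and the share called was near the 35.9% over all tested genes. The list mixes genes of different effect on integrins, so its counts give no direction of integrin activity. Without YAP replicate 1 the lower ones numbered 3, and after median-of-ratios scaling 6 were higher and 4 lower. The adaptor genes LIMS1 and LIMS2, paralogs that compete for the integrin-linked kinase, moved in opposite directions. LIMS1 had 5.87, 5.26 and 6.04 FPKM in YAP libraries, against 9.47, 9.34 and 11.4 FPKM in control libraries (limma adjusted p = 2.5e-04). LIMS2 had 5.55, 6.55 and 5.68 FPKM in YAP libraries, against 2.05, 3.63 and 2.67 FPKM in control libraries (limma adjusted p = 5.3e-04). Reads that fit both relatives could have been divided in ways not given in the sources used here. FYN, a Src family kinase, was higher at 11.9 ± 0.55 FPKM in YAP libraries and 7.07 ± 0.83 in control libraries (SD, n = 3 each; limma adjusted p = 2.5e-04). Talin (TLN1), which binds beta subunit tails, had 113 ± 3.29 FPKM in YAP libraries and 106 ± 4.81 in control libraries and did not pass (limma adjusted p = 0.32).

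Spread between replicates was shared by many of these long genes. The coefficient of variation over replicates had a median of 11.7% in YAP libraries and 13.0% in control libraries over the 24 tested genes. It was highest for ITGA4 in both groups, at 23.0% in YAP libraries and 32.3% in control libraries. In 16 of the 24, replicate 2 was the lowest library of its group in both groups, as for ITGB1, ITGAV, LAMB1, LAMC1 and NID1. The same held for 25.2% of all tested genes, for 52.7% of the 2691 longest and for 6.17% of the 2692 shortest of them. The 24 genes had a median gene model length of 5817 bases, against 2958 bases over all tested genes. The median log2 change was -0.06 over those 2691 longest genes and -0.12 over the 2692 shortest.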

How the data were processed

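RNA was sequenced from 3 libraries labelled YAP and 3 control libraries. The authors deposited FPKM values, in a control table and a YAP table with the same gene identifiers. Per the submitters' processing notes, fastp, HISAT2 and HTSeq were used. The sources used here give no version, genome build, annotation or strand setting. Besides the 3 YAP columns, the YAP table held 6 other columns of per-sample values with TAZ or pcDNA in their headers, which correspond to no labelled sample and were left unused. Values were compared across the 2 tables as deposited. Samples were grouped by title, and 16262 of 16285 identifiers matched a RefSeq symbol of assembly ARS1.2, used for names alone.

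Limma 3.58.1 in R 4.3.3 was fitted to log2(FPKM + 1), with a variance trend, on the genes that reached 1 FPKM in 3 or more libraries. P-values are two-sided, with Benjamini-Hochberg adjustment over all 10761 tested genes. Shares are of summed FPKM within a library. Low FPKM values move in steps of 1 read, from which whole reads were recovered within 0.05 reads for 15958 of 15958 genes above 0. They gave totals of 36966875, 32593380 and 37131015 counted fragments in YAP replicates 1 to 3, and 34967990, 33871397 and 34594066 in control replicates 1 to 3. Read numbers cover counting error only. The code of the fit was run on simulated data with known changes. Those libraries were drawn independently, without the lower replicate 2 that many long genes shared. That run therefore does not give error rates for the present data. Alternatives were another pseudocount, other filters, median-of-ratios and quantile scaling, no variance trend, the replicate number as a block, limma-voom on recovered reads and leaving out each library. The genes and lists were chosen with earlier results of these data known. The text accounts for every gene of the set but 1, which is not reported here, and names the 3 called members with the smallest adjusted p of each wider list; COL4A1, DAG1, TLN1, WWTR1, ITGA2B, the LOC rows and the marker genes were named after their values were seen.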

Additional observations from a re-analysis of the deposited data

How the results depend on the processing

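Over 14 alternatives, 7 of the 10 genes past the threshold stayed past it in the same direction, and 0 reversed. LAMA2, among the 7, had met the filter through its control libraries, where it was higher. The other 3 were ITGA4, ITGB1 and LAMC1, for which the settings that ended the call stand beside the result. Median-of-ratios scaling gave 1507 lower genes over the whole table, and the replicate block 3745. The cause was not tested. Leaving out each library gave 1024 to 1333 higher and 1387 to 2273 lower genes over the whole table, the lowest counts without YAP replicate 1, and 4 to 5 higher and 4 to 7 lower genes of the set. The collagen-binding subunits had 1 lower gene with the filter at 0.1 FPKM and with no filter, since more genes were tested. Without a filter the laminin-binding subunits had 1 higher gene. The lower counts without a filter were 3 for other laminin receptors and 3 for ligands of RGD-binding integrins. Quantile normalization gave 1 lower laminin chain.

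The replicate block gave 3 higher among nidogens and proteoglycans, as HSPG2 and NID1 passed (limma adjusted p = 0.019 and 0.022), and 6 higher and 7 lower in the set, as LAMA5 passed (limma adjusted p = 0.010). Deviations from the group means correlated at -0.02, 0.59 and 0.60 between same-numbered libraries 1 to 3. YAP replicate 1 correlated best with control replicate 3, at 0.14. Within a group of 3 the deviations constrain each other, so these values cannot decide whether the numbers pair the samples. The main fit treated the samples as unpaired.

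Leaving out each library gave 0 to 1 higher laminin-binding subunits, 1 to 3 lower laminin chains and 1 to 2 higher among nidogens and proteoglycans. It gave 3 to 6 lower integrin regulators and adaptors, and 1 to 2 higher and 3 to 6 lower other laminin receptors. The YAP1 change ran from -0.028 to 0.054, and the difference in laminin-binding alpha share from -0.35 to 1.43 percentage points. The collagen-binding share difference ran from 0.11 to 1.06 percentage points. In recovered reads the laminin-binding difference was -1.15 and the RGD-binding difference -0.68 percentage points, where FPKM gave -2.34. The LAMA2 share difference was -1.81 percentage points in FPKM, -2.67 in reads and -0.71 with the alpha-5-like row counted, an alternative chosen after seeing the data.

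Genes not past the threshold changed sign in some settings. ITGB3 was at 0.012 after median-of-ratios scaling. Leaving out each library gave changes of -0.139 to 0.023 for ITGB3, -0.203 to 0.163 for ITGA11, -0.063 to 0.208 for ITGAV and -0.070 to 0.139 for LAMB1. Group sizes of 3 and the low reads of the 13 untested genes limit what could be detected.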
